A study of Mus musculus with 384 samples.

Results

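Cd74 and the major histocompatibility complex (MHC) class II genes H2-Aa, H2-Ab1, H2-Eb1, H2-DMa and Ciita were followed through single regulatory T (Treg) cells of mouse ear skin. These 6 genes were taken by symbol. All 6 were found among the 50556 gene symbols of the count matrix and had counts in the cells kept for analysis. MHC class II molecules are pairs of an alpha and a beta chain that carry peptides from the endosome to the cell surface, where CD4 T cells read them. Dendritic cells, Langerhans cells, macrophages and B cells are the usual carriers, and mouse T cells are known to make little of their own class II while they can take up class II protein from other cells. The product of Cd74, the invariant chain, escorts new class II molecules, H2-DMa encodes a chain of the peptide exchanger H2-M, and Ciita encodes the master transactivator of the pathway.

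Ears were treated on both faces with topical 5% imiquimod, an activator of Toll-like receptors that inflames the skin, or with vehicle, and Treg cells were sorted into plates on day 3. The labels used here gave no strain, age or sort marker, and named 2 mice per treatment without tying them to plates. Each treatment had 2 plates of 87 single-cell wells. The series also held 16 wells of 10 cells and 20 wells with no cell, which carry no treatment label and are not tied to a plate here. Wells with at least 500 genes and 10000 counts were kept, which left 38 and 44 imiquimod cells and 62 and 58 vehicle cells, 202 of 348. The plate was the replicate, so every p-value below measures the spread between plates, which may be technical.

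Genes of the labelled cell type were found in part of the kept cells. Tcra had a count in 69.8% of them, Tcrb in 69.3%, Ikzf2 in 59.4% and Foxp3 in 37.1%. Of the 20 wells with no cell, 3 had a count of Tcra, 1 of Tcrb, 1 of Ikzf2 and 0 of Foxp3. Only 8 of these wells held at least 10000 counts. In those 8, Tcra was found in 3 (37.5%), Tcrb in 1 (12.5%) and Ikzf2 and Foxp3 in 0. Kept cells held 47481 to 5946386 counts each, and their median gene number was 975 and 1093 on the imiquimod plates and 1040.0 and 1503 on the vehicle plates. Counts are of reads without molecular identifiers, so that copies of 1 amplified molecule count as several. Of the 202 kept cells, 38 stood apart by having counts of at least 3 of Cd74, H2-Aa, H2-Ab1 and H2-Eb1, mostly a few counts of each, and 34 of these lay on the vehicle plates. The main results that rest on them are also given without them. Whether spill of reads between wells, a second cell or free RNA gave these low counts was not tested.

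Of H2-Aa, H2-Ab1 and H2-Eb1, only H2-Aa and H2-Eb1 had a matched promoter entry, and their proximal promoters are shown. The 2 genes shared 33 of their 49 and 40 kept cells. Without the cells that had at least 3 of Cd74, H2-Aa, H2-Ab1 and H2-Eb1, they shared 1 of 13 and 6. That step removes every cell in which the 2 genes came with Cd74 or H2-Ab1, so the sharing falls by construction. Whether the promoter letters bear on detection in the same cells was not tested. The runs below are the 150 bases before the annotated start, 5′ to 3′ on the strand of the gene, from RefSeq on GRCm38.p6. H2-Aa lies on the reverse strand at chr17:34287824-34287973 and H2-Eb1 on the forward strand at chr17:34305717-34305866. Capitals mark the letters GCAAC, the core of the X box bound by the RFX complex, and CTGATTGG, the core of the Y box bound by NF-Y, to which the product of Ciita is recruited.
H2-Aa: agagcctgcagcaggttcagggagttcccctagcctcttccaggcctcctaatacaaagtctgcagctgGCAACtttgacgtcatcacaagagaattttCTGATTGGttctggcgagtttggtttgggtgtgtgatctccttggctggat
H2-Eb1: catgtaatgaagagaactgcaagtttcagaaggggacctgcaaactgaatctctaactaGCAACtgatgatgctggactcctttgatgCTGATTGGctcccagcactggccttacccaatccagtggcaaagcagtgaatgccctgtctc
In H2-Aa the X box letters began at position -81 and the Y box letters at -51 from the start, and in H2-Eb1 at -91 and -62. On either strand, CTGATTGG was found in 3.163% and GCAAC in 19.56% of all 32851 promoter windows of this length. The 2 letter strings do not overlap one another. Both H2-DMa windows, from separate annotated starts, lacked CTGATTGG. Promoter entries for 3 of the 6 members were matched, and none was used for Cd74, H2-Ab1 and Ciita.

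Wells with no cell set the background for these genes. Of the 20 such wells, 12 held 0 to 2824 counts and no member. The other 8 held 144027 to 1527760 counts and a median of 317.5 genes, and 5 of them (62.5%) had a count of a member, against 47.5% of kept cells with their median of 1101 genes. H2-Ab1 and H2-Eb1 each had a count in 2 of the 8 wells (25.0%), and Cd74, H2-Aa and H2-DMa in 1 (12.5%). In kept cells H2-Ab1 was found in 24.3%, H2-Eb1 in 19.8%, Cd74 in 34.2%, H2-Aa in 24.3% and H2-DMa in 5.94%. Over all kept cells together, the shares of H2-Ab1, H2-Eb1, H2-DMa or any member were therefore not above those of these 8 wells. So few wells, not tied to a plate here, cannot give a background for each plate or treatment. A low count of 1 member is not read here as expression. Ciita had a count in 0 of the 8, which allows a share of up to 37.5%. The well with the most counts, which with 885 genes also passed the filter on genes and counts, had 4543 counts of Cd74 and 10208 of H2-Ab1. The other 4 with a member had at most 4 counts of it. None of the 8 had 3 or more of Cd74 and the chain genes, which again allows up to 37.5%.

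Fewer imiquimod cells than vehicle cells had a count of each of the 6 genes, on both plates. Cd74 was found in 10 of 38 and 8 of 44 imiquimod cells (26.3% and 18.2%), against 22 of 62 and 29 of 58 vehicle cells (35.5% and 50.0%). The means were 22.2% ± 5.75 in imiquimod and 42.7% ± 10.3 in vehicle (SD, n = 2 plates each). For Cd74 a two-sided exact permutation test over plates gave p = 0.33, which is the lowest value reachable with this number of plates, so it could not pass 0.05.

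The alpha and beta chain genes were also found in a smaller share of imiquimod cells than of vehicle cells. H2-Aa, the alpha chain of I-A, had counts in 3 and 4 imiquimod cells (7.89% and 9.09%), against 18 and 24 vehicle cells (29.0% and 41.4%). H2-Ab1, the beta chain of I-A, had counts in 7 and 4 imiquimod cells (18.4% and 9.09%), against 19 and 19 vehicle cells (30.6% and 32.8%). H2-Eb1, the beta chain of I-E, had counts in 3 and 4 imiquimod cells (7.89% and 9.09%), against 18 and 15 vehicle cells (29.0% and 25.9%). The imiquimod and vehicle plates did not overlap for any of the 3. H2-Ea, the alpha chain partner of H2-Eb1 that some laboratory strains lack, had a count in 1 kept cell.

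The peptide exchanger and the transactivator were rare in every group. H2-DMa had counts in 0 and 1 imiquimod cells (0% and 2.27%), against 2 and 9 vehicle cells (3.23% and 15.5%). Its absence from 38 cells of imiquimod plate 1 allows a share of up to 9.25% by the exact binomial interval. Ciita had counts in 0 and 3 imiquimod cells (0% and 6.82%), against 6 and 6 vehicle cells (9.68% and 10.3%). At least 1 of the 6 genes was present in 16 and 13 imiquimod cells (42.1% and 29.5%), against 27 and 40 vehicle cells (43.5% and 69.0%), or 96 of all 202.

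**Figure D1:**
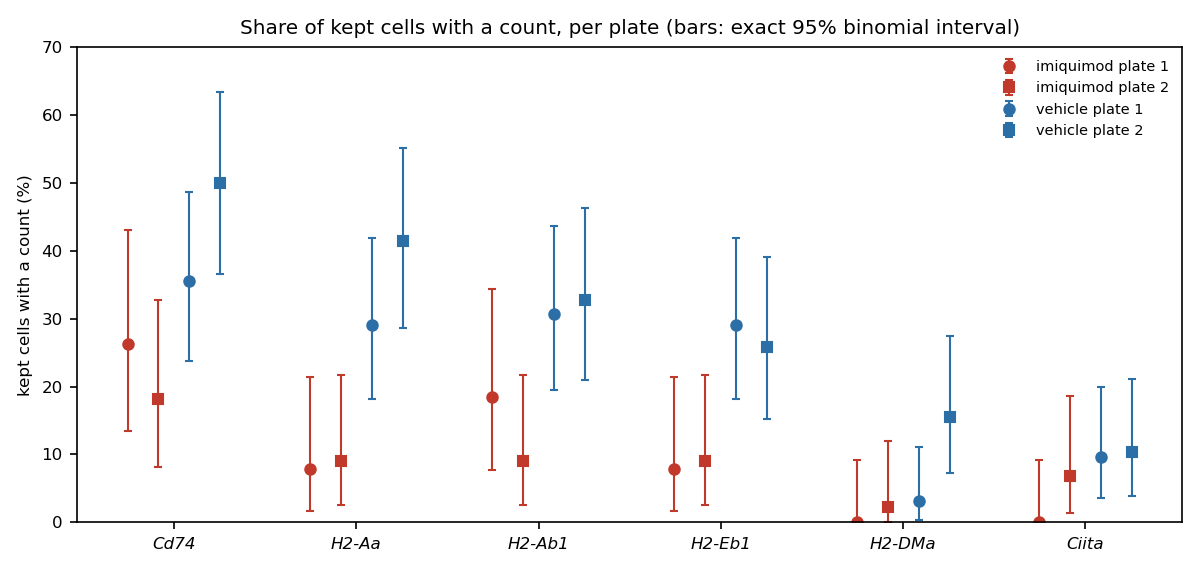
Percent of kept cells with at least 1 count of each gene (vertical axis) on the 2 imiquimod plates and the 2 vehicle plates, with exact 95% binomial intervals for counting error. For all 6 genes both imiquimod points lie below both vehicle points, with Cd74 at 18.2% to 26.3% against 35.5% to 50.0%.

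All 6 members therefore had both imiquimod plates under both vehicle plates in share of cells with a count. With detection set at 10 CPM, and in cells thinned to 100000 counts, the plates overlapped for H2-DMa and Ciita. The same order held for 42.5% of the 14462 genes that entered the edgeR test, and the opposite order for 6.29%, so a lower share in imiquimod was common among all genes. Each member and the share with any member had an exact permutation p = 0.33. In cells thinned to 100000 counts, the median gene number was 472 and 466.5 on the imiquimod plates, against 609 and 815.5 on the vehicle plates, and its part in the shares was not tested. In the same thinned cells, the share with any member was 31.4% and 22.7% on the imiquimod plates, against 36.1% and 56.9% on the vehicle plates. In cells of at least 1000 genes it was 68.4% and 42.9% for imiquimod, against 50.0% and 75.0% for vehicle, which overlap (exact permutation p = 0.67), and Cd74 overlapped there too. Without the 38 cells that had 3 or more of Cd74, H2-Aa, H2-Ab1 and H2-Eb1, the share with any member was 40.5% and 24.4% on the imiquimod plates and 22.2% and 56.1% on the vehicle plates, which overlap. The mean share of H2-Ab1 was then higher in imiquimod, with 16.2% and 2.44% of imiquimod cells against 4.44% and 4.88% of vehicle cells. Only imiquimod plate 1 lay above the vehicle plates. The 38 cells were chosen by Cd74 and the chain genes, and 34 were vehicle cells. Leaving them out lowers the vehicle shares by construction.

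**Figure D2:**
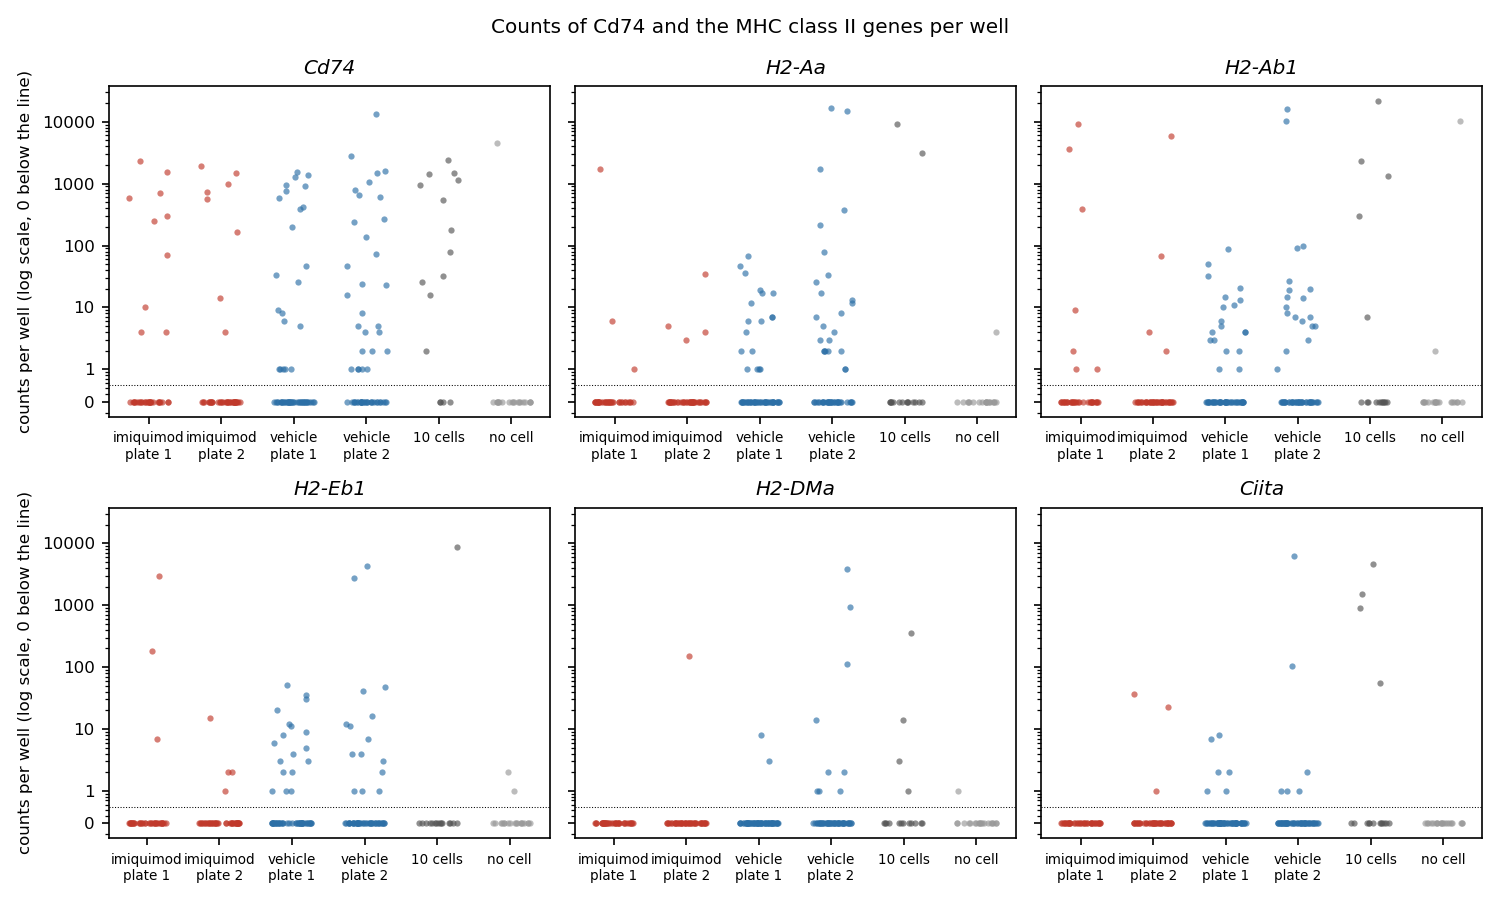
Counts of each gene per well (log scale, with wells at 0 below the dotted line) in kept cells of the 4 plates, in wells of 10 cells and in wells with no cell; each point is 1 well. H2-Aa, H2-Ab1 and H2-Eb1 stay at 67, 89 and 51 counts or less in vehicle plate 1 cells, and kept cells above 1000 counts of 1 of them lie on the other 3 plates.

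Summed levels per plate did not follow the number of cells with a count. Cd74 summed to 122.8 and 63.0 CPM (counts scaled to the library total, adjusted by TMM) for imiquimod plates 1 and 2, against 87.4 and 181 CPM for vehicle plates 1 and 2. H2-Aa summed to 36.6 and 0.504 CPM for imiquimod plates 1 and 2, against 2.56 and 267 CPM for vehicle plates 1 and 2. H2-Ab1 summed to 284 and 63.5 CPM for imiquimod plates 1 and 2, against 2.79 and 207 CPM for vehicle plates 1 and 2. For each of these genes the plates of both treatments overlapped. H2-Eb1 summed to 66.4 and 0.214 CPM for imiquimod plates 1 and 2, against 2.08 and 56.1 CPM for vehicle plates 1 and 2. H2-DMa summed to 0 and 1.60 CPM for imiquimod, against 0.111 and 38.6 CPM for vehicle, and Ciita to 0 and 0.654 CPM, against 0.213 and 49.4 CPM. Vehicle plate 1, with 18 to 22 positive cells for each of Cd74 and the chain genes, was among the 2 lowest plates in level for all 3 chain genes.

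The comparison of treatments called none of the 6 members. The log2 fold change of imiquimod over vehicle was -0.53 ± 1.93 (SE) for Cd74, with an edgeR adjusted p = 0.957. It was -2.86 ± 2.88 for H2-Aa, 0.73 ± 2.04 for H2-Ab1 and 0.19 ± 3.29 for H2-Eb1, with edgeR adjusted p-values of 0.773, 0.943 and 0.993. For H2-DMa it was -4.59 ± 4.24 and for Ciita -6.23 ± 4.51, with edgeR adjusted p-values of 0.743 and 0.636. The standard errors lie between 1.93 and 4.51 on the log2 scale, so even large differences in either direction could not be seen with 2 plates per treatment. They were derived from the log2 fold change and the F statistic of the edgeR test. Of all 14462 genes, edgeR called 0%, had 11.5% at an unadjusted p under 0.05, and 0 of these were members. DESeq2 called 25.9% of genes and 0 members. Levels of the imiquimod and vehicle plates lay apart in 44.8% of genes and in 0 of the 6 members. The median log2 fold change was -1.70 over the members and -0.26 over all genes tested. DESeq2's size factors moved the median over all genes to 0.11, and Cd74 then had a log2 fold change of 0.01.

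Single cells carried most of these sums. On imiquimod plate 1, 1 cell held 99.6% of the H2-Aa counts and 1 cell 93.9% of the H2-Eb1 counts, and on imiquimod plate 2, 1 cell held 98.8% of the H2-Ab1 counts. On vehicle plate 2, 1 cell held 98.3% of the Ciita counts, 60.3% of the H2-Ab1 counts, 59.2% of the H2-Eb1 counts and 57.3% of the Cd74 counts. On vehicle plate 1 the highest cell held 18.0% of the Cd74, 26.5% of the H2-Aa, 32.2% of the H2-Ab1 and 24.9% of the H2-Eb1 counts. On that plate no cell had more than 67 counts of H2-Aa, 89 of H2-Ab1 or 51 of H2-Eb1, while Cd74 ran up to 1552.

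Patterns of detection could be separated by how many of Cd74, H2-Aa, H2-Ab1 and H2-Eb1 a cell had. Counts of 3 or 4 of them were found in 1 and 3 imiquimod cells (2.63% and 6.82%), against 17 and 17 vehicle cells (27.4% and 29.3%). Counts of 1 or 2 of them were found in 15 and 9 imiquimod cells, against 10 and 20 vehicle cells. This split was chosen after the values were seen, so no test is given. Of the 38 cells with 3 or 4 genes, 30 had no count over 100 among them, whereas 32 of the 54 cells with 1 or 2 genes had one.

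**Figure D3:**
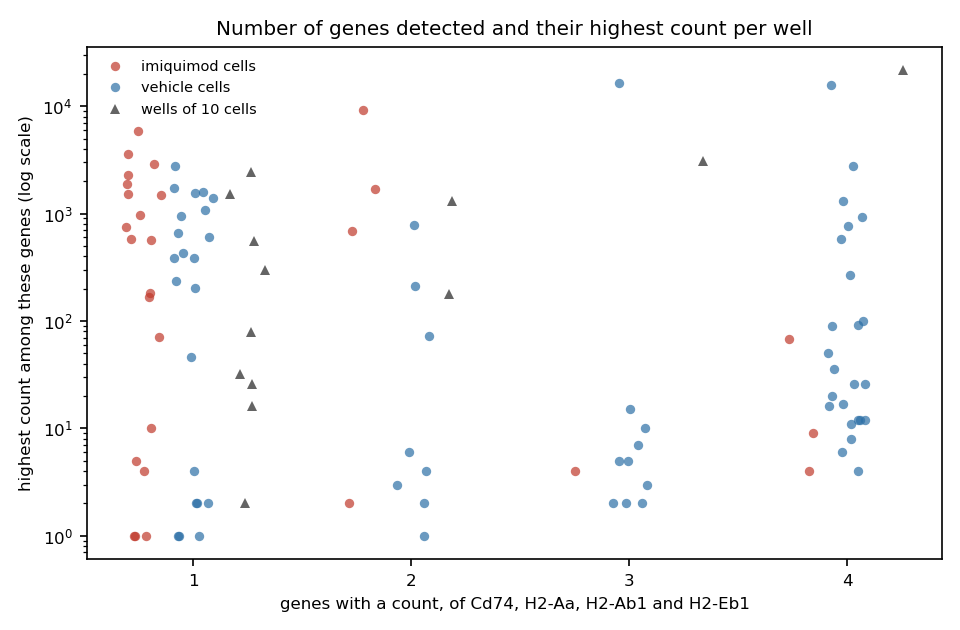
Highest count among Cd74, H2-Aa, H2-Ab1 and H2-Eb1 (log scale) against the number of these genes with a count, for kept cells of imiquimod and vehicle and for wells of 10 cells; each point is 1 well with at least 1 of the genes. Cells with 3 or 4 genes are mostly vehicle cells at 100 counts or less, while most cells with 1 gene lie above 100 counts.

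Chain genes were mostly detected in the same cells. H2-Ab1 was present in 38 of the 49 cells with H2-Aa (77.6%), and H2-Ab1 had the same total of 49 cells. H2-Eb1 shared 34 of its 40 cells with H2-Ab1 (85.0%) and 33 with H2-Aa (82.5%). Cd74 was found in 73.5% of H2-Aa cells, 75.5% of H2-Ab1 cells and 72.5% of H2-Eb1 cells, and these made up 52.2%, 53.6% and 42.0% of its own 69 cells. Ciita shared 11 of its 15 cells with H2-Aa, and H2-DMa shared 6 of its 12 with H2-Aa. Without the 38 cells, which were set apart by these same genes, H2-Aa and H2-Ab1 shared 2 of 13 and 11 cells, H2-Ab1 and H2-Eb1 shared 0, and Cd74 shared 5 of its 36 cells with H2-Aa.

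In the cells with few counts, the chain counts were divided among all 3 genes. In the 36 kept cells with 3 or 4 of the genes and no chain gene over 100 counts, the 1565 chain counts were 32.0% H2-Aa, 43.8% H2-Ab1 and 24.2% H2-Eb1. In the 19 of them with at least 20 chain counts, the H2-Aa share was 32.0% over all counts with an SD of 9.55 percentage points between cells, the H2-Ab1 share 43.6% with an SD of 12.3, and the H2-Eb1 share 24.3% with an SD of 8.67. Between these cells the H2-Aa share ran from 14.3% to 52.2%, that of H2-Ab1 from 22.6% to 66.7% and that of H2-Eb1 from 12% to 40%. These are shares of counts and are not corrected for gene length. Across the 36 cells, Spearman's rho was 0.86 between H2-Aa and H2-Ab1, 0.90 between H2-Aa and H2-Eb1 and 0.79 between H2-Ab1 and H2-Eb1. It was 0.49 between the chain counts and Cd74 and -0.12 between the chain counts and all counts of the cell. The 36 cells were chosen by these genes, so the values describe them only, and no p is given. The sum of chain counts reached at most 217 in any of them, while 6 of them had over 100 Cd74 counts.

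**Figure D4:**
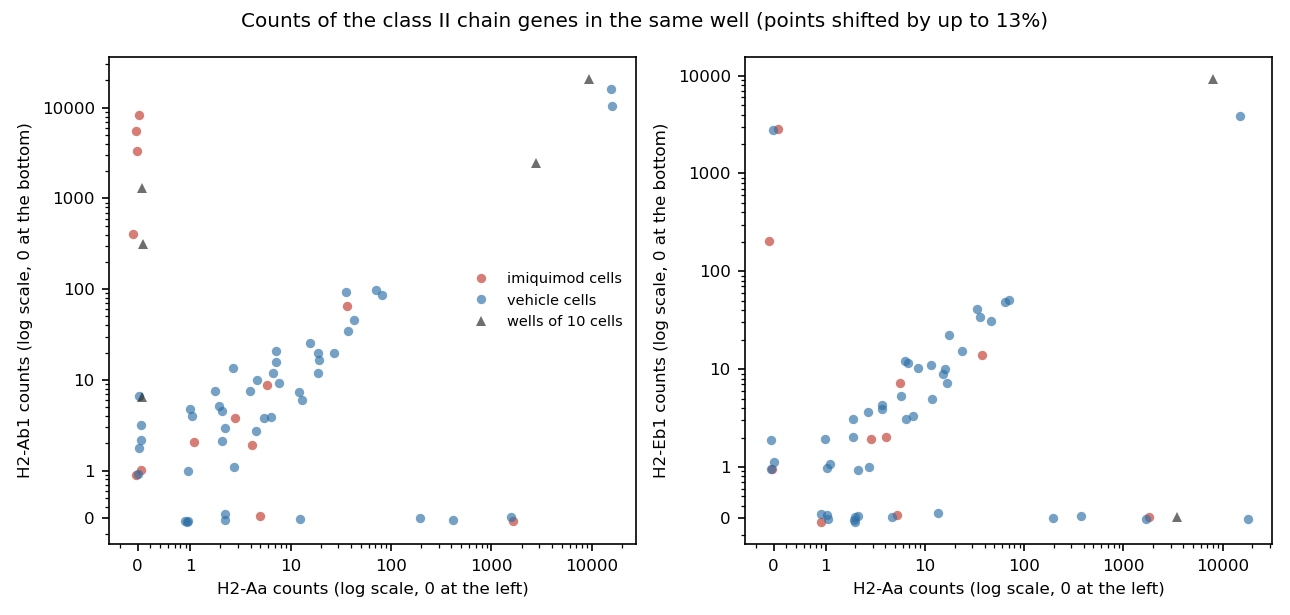
Counts of H2-Ab1 (left) and H2-Eb1 (right) against those of H2-Aa in the same well, on log scales with 0 at the left and bottom edges, for kept cells and wells of 10 cells. Points up to about 100 counts, nearly all of vehicle cells, lie along a line, while most wells with over 1000 counts lie on an axis, with 1 chain gene and 0 of the other.

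High counts were spread differently. More than 100 counts of Cd74 were found in 33 cells, 6 and 6 on the imiquimod plates and 10 and 11 on the vehicle plates, and 17 of these had no other member. More than 100 counts of H2-Aa were found in 6 cells, of H2-Ab1 in 6, of H2-Eb1 in 4, of H2-DMa in 4 and of Ciita in 2. Only 2 cells combined over 1000 counts of H2-Aa with over 1000 counts of H2-Ab1, both on vehicle plate 2.

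Of these 2 cells, 1 had 13192 counts of Cd74, 15061 of H2-Aa, 15834 of H2-Ab1, 4219 of H2-Eb1 and 6162 of Ciita. It also had 8 of the 16 listed T cell genes, of which 13 had a count in kept cells, and 6 of the 10 Treg genes. Among these were 11183 counts of Cd247 and 3931 of the Treg gene Ikzf2, with 0 of Lck and Foxp3. Of the 11 listed genes of macrophages and monocytes it had 4, among them 6554 counts of Lyz2, 3712 of Cd68 and 3944 of Cd14. It had 3 of the 10 listed dendritic cell genes. The other cell had 1474 counts of Cd74, 16371 of H2-Aa and 10097 of H2-Ab1, with 1 T cell gene and 0 of the 10 Treg genes. It had 17852 counts of Il1r2, a decoy receptor for interleukin-1 that Treg cells can also express. Il1r2 was the only gene of the Langerhans cell list in that cell.

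Other high cells had 1 chain gene beside T cell genes. An imiquimod plate 1 cell had 2914 counts of H2-Eb1 and 0 of H2-Aa, with 11404 of Tcrb, 10733 of the kinase gene Lck and 3605 of Icos. An imiquimod plate 2 cell had 5850 counts of H2-Ab1 and 0 of Cd74, with 8025 of Cd4, 12947 of Ctla4 and 21454 of Tnfrsf4. A vehicle plate 2 cell had 3833 counts of H2-DMa and 656 of Cd74, with 11 T cell genes. In the imiquimod plate 1 cell with the highest H2-Ab1, at 9305 counts, only 2 T cell genes were seen. These cells were chosen for their member counts.

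Wells of 10 cells were checked for the same genes. Cd74 had a count in 12 of 16 such wells, at a median of 65.9 CPM where found. H2-Ab1 had a count in 5 wells, H2-DMa and Ciita in 4 each, H2-Aa in 2 and H2-Eb1 in 1. The order of detection thus placed Cd74 first, as in single cells, but H2-Aa and H2-Eb1 fell below H2-DMa and Ciita, on counts of wells that are too few to separate them. In 1 well there were 955 counts of Cd74, 9023 of H2-Aa, 21586 of H2-Ab1, 8704 of H2-Eb1 and 351 of H2-DMa. Another had 1441, 3112, 2287 and 0 counts of the first 4 genes in that order, and 1493 of Ciita. These were the only wells of 10 cells with 3 or 4 of Cd74 and the chain genes, and both had over 100 counts. The pattern of a few counts of each gene was thus seen in 0 of 16, which allows up to 18.75% of such wells. Each of these wells pools 10 cells, so this is not a limit on the share of single cells. Of the kept single cells, 18.8% had 3 or 4 of these genes. Why the pattern was not seen in wells of 10 cells was not tested.

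To ask which genes were found with class II, 71 kept cells with at least 10 CPM of the 6 members together (class II cells) were set against 106 kept cells with 0 counts of all 6. There were 12 and 10 class II cells on the imiquimod plates and 21 and 28 on the vehicle plates, beside 22, 31, 35 and 18 cells with none. More T cell genes were found per class II cell on all 4 plates. Of the 16 listed T cell genes, 13 had a count in kept cells. Per class II cell, 5.00 and 5.60 of them were found on the imiquimod plates and 5.14 and 6.07 on the vehicle plates. In cells with none, 2.82, 3.03, 5.06 and 3.94 were found on the same plates in that order. The mean difference was 1.74 ± 1.1 genes (SD, n = 4 plates), higher in 4 of 4 plates, with an exact two-sided sign-flip permutation p = 0.13, the smallest that 4 plates give. The lowest plate, vehicle plate 1, had a difference of 0.0857 genes. The 10 Treg genes averaged 4.71 in class II cells and 2.94 in cells with none, higher in 4 of 4 plates (exact permutation p = 0.13). Of the 71 class II cells, 98.6% had a count of some T cell gene, against 96.2% of cells with none, so this share hardly differed.

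**Figure D5:**
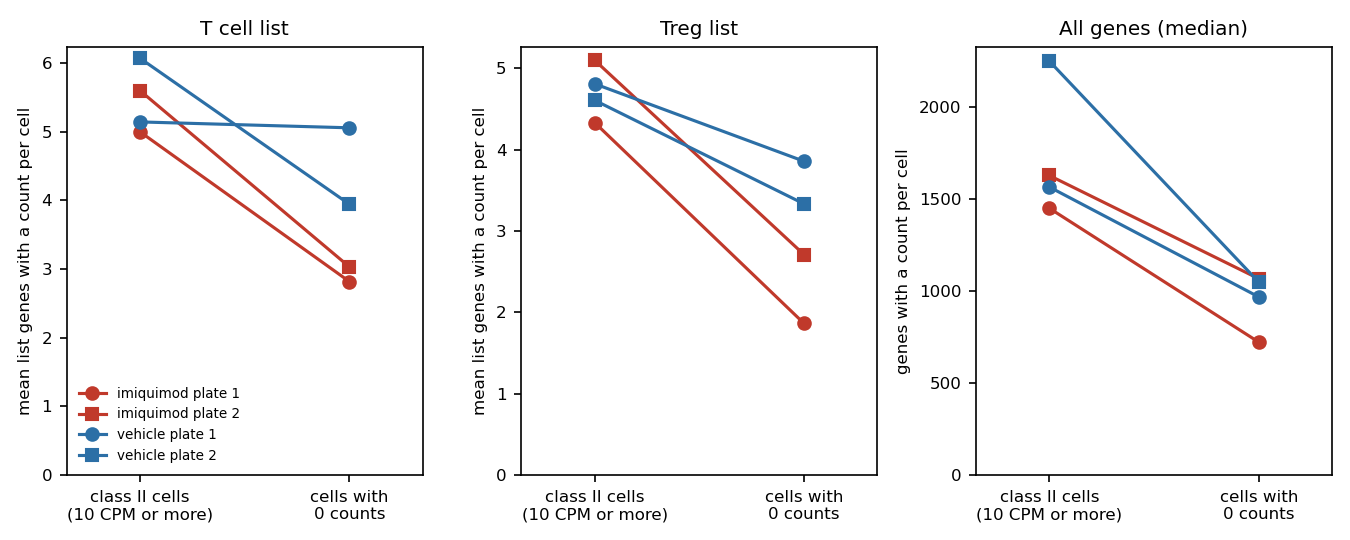
Mean number of listed T cell genes (left) and Treg genes (middle) with a count per cell, and median number of all genes per cell (right), in class II cells and in cells with 0 counts of all 6 members; each line is 1 plate. All 4 plates have more of each in class II cells, with a difference in T cell genes of 0.0857 to 2.57.

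Class II cells also had more genes of every kind. Their median gene number was 1451.5 and 1629.5 on the imiquimod plates and 1567 and 2252 on the vehicle plates, against 723, 1068, 969 and 1049.5 in cells with none. Of the 3740 genes with a count in at least 10% of kept cells, 80.6% had a larger share of positive cells among class II cells, so a larger share there is the common case, and its part in each gene below was not tested. With cells thinned to 100000 counts, the mean difference in T cell genes was 1.82 (exact permutation p = 0.13). Thinned class II cells still had more genes, at medians of 770 and 911 on the imiquimod plates and 813.5 and 1255 on the vehicle plates. Thinned cells with none had 293.5, 413, 542 and 500 in the same order. With a class minimum of 100 CPM the mean difference in T cell genes was 1.61, higher in 3 of 4 plates (exact permutation p = 0.25). On vehicle plate 1 that difference was -0.63. In cells of at least 1000 genes the mean difference was 1.07, higher in 3 of 4 plates (exact permutation p = 0.25). On vehicle plate 1 that difference was -1.07. Without the cells that had 3 or more of Cd74 and the chain genes the mean difference was 2.82 (exact permutation p = 0.13).

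Single T cell genes differed in this respect. Cd247, the zeta chain of the receptor complex, had a count in 46.5% of class II cells and 18.9% of cells with none, and Cd3e in 35.2% and 17.0%. Cd4 was found in 36.6% and 16.0%, the Treg genes Il2ra in 63.4% and 34.9%, Gata3 in 59.2% and 35.8%, and Foxp3 in 49.3% and 34.0%. Among the 40 class II cells outside the 38, Cd247 was found in 57.5%, Cd4 in 32.5% and Foxp3 in 65.0%. Tcra was found in 67.6% of class II cells and 70.8% of cells with none, and Tcrb in 74.6% and 65.1%. None of these was called by edgeR, with an adjusted p = 1 for each.

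At least 1 gene of the class II accessory list had a count in 87.3% of class II cells and 56.6% of cells with none. The list holds antigen-processing genes, further class II chain genes and the ubiquitin ligase genes Marchf1 and Marchf8. Ctss, the protease that trims the invariant chain, had a count in 31.0% of class II cells and 6.60% of cells with none, and the lysosomal protease Ctsb in 45.1% and 9.43%. H2-DMb2, a beta chain of H2-M, was found in 16.9% and 0.943%, H2-DMb1 in 7.04% and 0%, and H2-Oa, a chain of the H2-M inhibitor H2-O, in 14.1% and 0.943%. Among the 40 class II cells outside the 38, H2-DMb2 was found in 1, H2-DMb1 and H2-Oa in 0, Ctss in 25.0% and Ctsb in 42.5%. In the 38 cells H2-DMb2 was found in 12, H2-DMb1 in 5 and H2-Oa in 10, at a median of 4.5, 2 and 1.5 counts. Marchf1, a ubiquitin ligase that removes class II from the surface, was found in 47.9% and 41.5%. Of the 14 listed accessory genes 8 entered the edgeR test of class II cells against cells with none, 0 were called, and their median log2 fold change was 0.81, against -0.43 over all genes tested. In the treatment test the same list had 0 of 8 called and a median of -0.76.

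Regulators of class II transcription were found in both kinds of cell. Ifngr1, a chain of the interferon gamma receptor, had a count in 60.6% of class II cells and 28.3% of cells with none. Crebbp, a coactivator, was found in 47.9% and 26.4%, and the receptor kinase genes Jak1 and Jak2 in 46.5% and 43.7% of class II cells, against 26.4% and 26.4%. The RFX complex genes were rare in kept cells, Rfxank in 7.43%, Rfx5 in 3.96% and Rfxap in 0.495%. Of 17 listed genes 16 were tested, 0 were called, and their median log2 fold change was 0.85 in class II cells over cells with none and 0.37 in imiquimod over vehicle.

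Of the 31 genes on the lists of dendritic, Langerhans, macrophage and monocyte, and B cells, 5 had no count in any kept cell, 20 had one in up to 10% of kept cells and 6 in more. The 6 were Zbtb46, Itgae, Adgre1, Mrc1, Ly6c2 and Ebf1. Mrc1 and Ly6c2 were found in 10.9% of kept cells each and Ebf1 in 11.4%, while Epcam was found in 14.1% of class II cells and 1.89% of cells with none. Among kept cells, Itgax had a count in 4, Flt3 in 10, Pax5 in 11, Lyz2 in 9, Csf1r in 2, Cd207, Ms4a1 and Cd79a in 1 each, and C1qa, C1qb, Fcgr1, Cd209a and Cd79b in 0. Of the dendritic cell list 9 of 10 genes had a count, of the macrophage and monocyte list 8 of 11, of the B cell list 5 of 6, and of the Langerhans cell list 4 of 4. Zbtb46 was found in 47.9% of class II cells and 22.6% of cells with none, and Adgre1 in 31.0% and 25.5%, with a median of 1 count where found in class II cells. Summed per plate, the dendritic cell list reached 12.6 to 704 CPM in class II cells and 0.403 to 324 CPM in cells with none. The macrophage and monocyte list reached 0.309 to 416 CPM in class II cells and 6.29 to 83.8 CPM in cells with none, and the B cell list 0.112 to 121.3 CPM in class II cells and 0.155 to 168 CPM in cells with none. The Langerhans cell list, which holds Itgae and Il1r2 that skin Treg cells can also express, reached 1212 to 2480 CPM in class II cells and 0 to 1603 CPM in cells with none. These ranges overlap for each list, and none had a gene called in either comparison. Whether a second cell, free RNA or spill of reads between wells added to single wells was not tested beyond these values.

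Ccr7, a receptor for lymph node homing that mature dendritic cells and naive T cells share, was found mainly in cells with few class II counts. It had a count in 28 of the 38 cells with 3 or 4 of Cd74 and the chain genes (73.7%, median 9 counts), in 12 of the 54 with 1 or 2 (22.2%) and in 3 of the 110 with none (2.73%). By plate it had a count in 3 and 6 imiquimod cells and in 19 and 15 vehicle cells. Its summed level was instead higher in imiquimod, where plate 1 reached 417.5 CPM and plate 2 reached 117.1 CPM. Vehicle plate 1 stood at 2.85 CPM and vehicle plate 2 at 7.22 CPM. The log2 fold change of imiquimod over vehicle was 5.73 ± 2.20 (SE), with an edgeR adjusted p = 0.42. Where Ccr7 was found, its median was 2479 and 47 counts in imiquimod cells and 10 and 3 in vehicle cells. Its highest cell had 17014 and 10705 counts on the imiquimod plates, against 87 and 651 on the vehicle plates. The imiquimod sums of Ccr7 thus rest mostly on 1 cell per plate. In the 38 cells, a median of 71.0% of the genes present had 10 counts or fewer, against 45.8% in the 54 cells and 55.9% in the 110. Median counts per cell were 588823, 2236981.5 and 1449536.5 in the same order. Cd3e was found in 18.4% of the 38 cells, 42.6% of the 54 and 16.4% of the 110. In the same order, Cd2 was found in 18.4%, 53.7% and 24.5%, and Foxp3 in 28.9%, 50.0% and 33.6%. Cd4 was found in 39.5%, 27.8% and 16.4%, and Il2ra in 60.5%, 63.0% and 35.5%.

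Across all genes, edgeR called 0 of 13978 genes (0%) between class II cells and cells with none, with the members left out and the plate as a block, and 2.68% had an unadjusted p under 0.05. DESeq2 called 1564. In 3.49% of genes the level was higher in class II cells on all 4 plates. Of genes with the same sign on all 4 plates, those of smallest p in the upward direction included Ccrl2, H2-D1, Pigr, Ppp1r3b, Ncstn, Cyb5a, Trappc9, Gimap1 and Irf7. H2-D1, a classical MHC class I heavy chain, stood at 6164 and 5605 CPM in class II cells of the imiquimod plates and 5076 and 4108 CPM in those of the vehicle plates, against 3330 and 1556 CPM and 3222 and 1209.6 CPM in cells with none. Its log2 fold change was 1.29 ± 0.45 with an edgeR adjusted p = 1, and no 1 cell held more than 9.54% of its counts. In the other genes just named, 1 cell held 27.8% (Cyb5a) to 92.8% (Ppp1r3b) of the counts of class II cells, and 54.8% in Pigr. Ccrl2, a chemerin-binding receptor, reached 1.72 and 196 CPM in class II cells of the imiquimod plates and 264 and 105.9 CPM in those of the vehicle plates, and 0 CPM in all 4 sums of cells with none.

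In the downward direction the genes were Cacna1a, Mtr, Got2, Atp6v0a1, Inpp5b, Rab3gap2, Zswim4, Arpc1a, Atg4b and Prpsap1. Cacna1a, a calcium channel subunit, had the smallest edgeR adjusted p among them, 0.52, with a count in 15.5% of class II cells and 20.8% of cells with none. Zswim4 had a log2 fold change of -2.42 ± 0.89 (edgeR adjusted p = 1). In these genes 1 cell held 26.1% to 86.3% of the counts of cells with none.

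The genes most like the members in level over cells included no T cell receptor gene. By the mean over plates of the within-plate Spearman correlation with the summed members (202 cells, 3630 genes), Ftl1, the ferritin light chain, came first at 0.48, with 0.59 and 0.43 on the imiquimod plates and 0.48 and 0.42 on the vehicle plates. It was followed by Tapbp, which loads MHC class I, at 0.40, the small protein gene Sh3bgrl3 at 0.40, the GTPase gene Rac2 at 0.39, Ctsb at 0.39, the actin-binding Coro1a at 0.37, the elongation factor Eef1a1 at 0.37 and the cytokine receptor chain Il2rg at 0.36. The median over all 3630 genes was 0.06, and 74.0% had a correlation above 0. These cells share depth and plate, so the correlations describe the cells only. Ftl1 had a median of 3 counts where found in the 38 cells with 3 or 4 of Cd74 and the chain genes, against 2741.5 counts in the 54 cells with 1 or 2. Among T cell and Treg genes the correlation was highest for Cd247 (0.25) and Cd3e (0.23) and was 0.09 for Foxp3.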

How the data were processed

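The authors deposited 1 matrix of counts of reads per gene and well, for 384 wells and 50556 symbols. The submitters' processing notes name Trimmomatic 0.39, STAR 2.7.3a, SAMtools 1.12 and the build mm39. For the counter, its use of strand and the annotation, the entry is: not given in the sources used here. Counts of overlapping class II genes and near copies, such as H2-Eb1 with H2-Eb2 or H2-DMb1 with H2-DMb2, are therefore uncertain where reads could be split. Without molecular identifiers, intervals and limits cover counting error only, and the limit for a count of 0 of n wells is 3 of n unless an exact interval is named. The labels name no plate for a well: the plate of single-cell wells was read from the prefixes of the well names (IMQ, IMQ1, VEH and VEH2), and wells of 10 cells or no cell are reported over all plates. Values without the 38 cells and the depth split of wells with no cell were added after seeing the data.

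Counts of kept cells were summed per plate and tested with edgeR 4.0.16 (quasi-likelihood, TMM, filterByExpr, Benjamini-Hochberg, threshold 0.05); DESeq2 1.42.0 and limma 3.58.1 on log2(CPM + 1) were alternatives, in R 4.3.3. The scripts were tested on simulated data with the same set spread for every gene. That checks the code and not the power of the tests in these data. Class II cells and cells with none were summed per plate with the plate as a block. CPM per cell and for shares used all counts of the cell. Thinning to 100000 counts left out 4 cells. No doublet caller was run on sorted wells.

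Members, lists and the rule for named genes were chosen with earlier results of these data known. Named were the 6 members, list genes by detection (some further list genes were named after their values were seen), for class II cells up to 10 genes per direction, by smallest p where none passed, with the same sign on all plates and a count in 10% of either class, and the 8 genes of highest correlation. Some genes that this rule or the lists name are not reported here. RefSeq promoters are on GRCm38.p6, another build than mm39, and give sequence only.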

Additional observations from a re-analysis of the deposited data

Results flagged for a closer look

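The contrast of class II cells with cells without class II differed between imiquimod and vehicle for 1 gene, Ralgds, an exchange factor for Ral GTPases, by the edgeR test of the class-by-treatment term (adjusted p = 0.0371). With DESeq2's size factors, no expression filter, thinning, a class minimum of 100 CPM, without either vehicle plate or without the 38 cells with 3 or more of Cd74 and the chain genes, no gene was called, Ralgds included. It stood at 0 and 0.0372 CPM in class II cells of the imiquimod plates, against 2595 and 208 CPM in cells with none. On the vehicle plates it stood at 759 and 84.4 CPM in class II cells, against 85.2 and 0.0286 CPM in cells with none. It had counts in 0 and 1 class II cells and 6 and 7 cells with none of the imiquimod plates, and in 5 and 4 class II cells and 3 and 1 cells with none of the vehicle plates.

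Wells below the filter on genes and counts, which enter no comparison, held the low-count pattern too. Counts of 3 or 4 of Cd74, H2-Aa, H2-Ab1 and H2-Eb1 were found in 13 of these 146 single-cell wells (8.90%), against 0 of the 8 wells with no cell that held at least 10000 counts, a number that allows up to 37.5%, so the share is not above what these wells allow. The 13 wells lay 4 and 5 on the imiquimod plates and 4 and 0 on the vehicle plates. Their chain counts were 30.5% H2-Aa, 48.7% H2-Ab1 and 20.8% H2-Eb1, and 1 of them, on vehicle plate 1, held 419 counts in all.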

How the results depend on the processing

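No paired analysis was possible because plates are nested in treatments and the well numbers only name wells. No setting called a member between treatments. Of all genes, DESeq2 called 3740, the fit without an expression filter 9, and fits without 1 plate 0 to 794 (215 without imiquimod plate 1 and 794 without imiquimod plate 2), against 0. For class II cells DESeq2 called 1564 genes, DESeq2's size factors 1, and fits without 1 plate 0 to 1. The class-by-treatment term, at 1 gene, gave 683 by DESeq2, 6 with no plate block, 0 to 214 without 1 plate, and 0 with DESeq2's size factors, no expression filter, thinning, a class minimum of 100 CPM or without cells with 3 or more of Cd74 and the chain genes. The cause was not tested.

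The log2 fold change of Cd74 turned to 0.013 under DESeq2 and under its size factors, 0.054 in cells of at least 1000 genes and 0.24 when the top cell of each gene was dropped from every plate. That of H2-Ab1 turned to -0.58 under limma and that of H2-Eb1 to -0.63, and H2-Eb1 to -3.72 in cells of at least 1000 genes and -1.91 without these top cells. Without 1 plate, it ran from -1.04 to 0.088 for Cd74, -7.93 to 2.84 for H2-Aa, -0.60 to 5.95 for H2-Ab1, -6.95 to 3.98 for H2-Eb1, -13.74 to 2.86 for H2-DMa and -14.10 to 0.66 for Ciita. Leaving out vehicle plate 2 turned the direction of Cd74, H2-Aa, H2-DMa and Ciita, and leaving out imiquimod plate 1 or vehicle plate 1 that of H2-Ab1 and H2-Eb1.

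The difference in share of cells with any member, -20.4 percentage points, stayed negative in all settings, from -33.1 to -7.72 without 1 plate, and was -6.86 in cells of at least 1000 genes (exact permutation p = 0.67) and -6.69 without cells with 3 or more of Cd74 and the chain genes. In that setting it was 4.67 for H2-Ab1 and 0.37 for H2-Eb1. That setting leaves out cells chosen by these same genes, mostly vehicle cells, which lowers the vehicle shares by construction. The difference in T cell genes was 1.46 to 2.29 without 1 plate. With a class minimum of 100 CPM it was 1.61. The settings without top cells or without cells of 3 or more genes were chosen after seeing the data. With 2 plates per treatment, few counts per cell and single cells that hold most counts, a lack of calls does not show a lack of change.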
